A study of Mus musculus with 6 samples.

Results

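Endothelin-1 (Edn1) and 9 receptors for vasoactive hormones were followed in primary prostate stromal cells with and without a stabilised form of β-catenin. They were chosen by name, with earlier results of these data known. The receptors are the endothelin receptors Ednra and Ednrb, the angiotensin receptor Agtr1a, the adrenergic receptors Adra1b, Adra1d and Adra2a, the oxytocin receptor Oxtr, and the bradykinin receptors Bdkrb1 and Bdkrb2. All 10 symbols were found among the 24346 gene symbols of the deposited tables. The cells were grown out of prostates of C57BL/6 mice aged 8 to 12 weeks, in medium with serum and 1e-10 M dihydrotestosterone, and were purified only by their attachment to collagen-coated plates within 30 min. The S37A group (3 libraries) carried cDNA of S37A β-catenin, cloned into the FU-CGW lentivirus; in this form a serine that is phosphorylated to mark the protein for breakdown is exchanged for alanine. The vector group (3 libraries) has the genotype vec and served as its control. The labels do not name the promoter that drives the cDNA. They also leave unsaid whether replicates are separate cultures or animals, so p-values reflect only differences among these libraries, possibly technical ones.

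Vasoactive peptides and amines set the tone of smooth muscle, and in the prostate they act on the stroma, where noradrenaline contracts smooth muscle through alpha-1 adrenergic receptors. Endothelin is made as a long precursor, cut by furin-like proteases and then by endothelin-converting enzymes, and it acts on the receptors encoded by Ednra and Ednrb. Most receptors of this list couple to Gq proteins, phospholipase C and calcium release; the product of Adra2a couples to Gi proteins and lowers cyclic AMP.

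Expression was deposited as FPKM, fragments scaled to transcript length and to the mapped fragments of the library, which is a level per length and allows levels of different genes to be set side by side. The width of the deposited confidence intervals corresponded to between 40.1 and 46.3 M fragments in the S37A libraries, against 45.7 to 50.4 M in the vector libraries. Ctnnb1, which encodes β-catenin, stood at 132, 144 and 146 FPKM in S37A libraries, against 116, 99.1 and 116 FPKM in vector libraries, and introduced and native transcripts are not separated in these values. Axin2, a feedback target of Wnt signalling, stood at 3.29, 2.74 and 2.82 FPKM in S37A libraries, against 0.169, 0.0921 and 0.132 FPKM in vector libraries, and every S37A library was above every vector library for both genes. The stromal identity was checked on marker genes. Col1a1, a fibrillar collagen, averaged 1970 ± 111 FPKM in S37A libraries and 1682 ± 209 FPKM in vector libraries, and Acta2, smooth muscle actin, averaged 3563 ± 121 and 3170 ± 73.3 FPKM in S37A and vector libraries (SD, n = 3 each). The stromal markers did not all move alike. Of 8 tested as described below, 1 (Thy1) was called higher in S37A and 1 (Pdgfra) lower, where 6.06% and 19.9% of all genes tested were. With median-ratio scaling 3 of the 8 were called higher and 0 lower, against 1339 and 890 of 12018 genes. Dcn averaged 67.9 ± 5.92 and 80.7 ± 16.2 FPKM in S37A and vector libraries, and Lum reached at most 0.502 FPKM in any library. The 9 epithelial markers summed to 10.5 to 20.5 FPKM in S37A libraries, against 13.1 to 19.2 FPKM in vector libraries.

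Tests used limma on log2(FPKM + 1) across the 12022 genes whose mean reached 0.5 FPKM, with Benjamini-Hochberg adjustment over all of them and a threshold of 0.05. Differences are S37A minus vector on that scale, on which changes of genes near or under 1 FPKM appear too small. Of the 10 genes, 7 passed the level filter, and Ednrb, Bdkrb1 and Oxtr did not. Edn1 rose in S37A cells, and it was the only member of the 7 to pass the test. Of all genes in the test, 26.0% passed, 6.06% as higher and 19.9% as lower in S37A, so 1 call among 7 genes is not a count that stands apart. By limma 0 members were lower. At an unadjusted p under 0.05, 2 of the 7 were higher and 0 lower, against 1239 and 3898 of all 12022 genes. With median-ratio scaling 4 of the 7 were higher and 0 lower at that level, against 2351 and 1976 of 12018 genes. These counts over 7 genes carry no test. The median difference of the 7 genes was 0.10, against -0.07 for all genes tested.

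**Figure D1:**
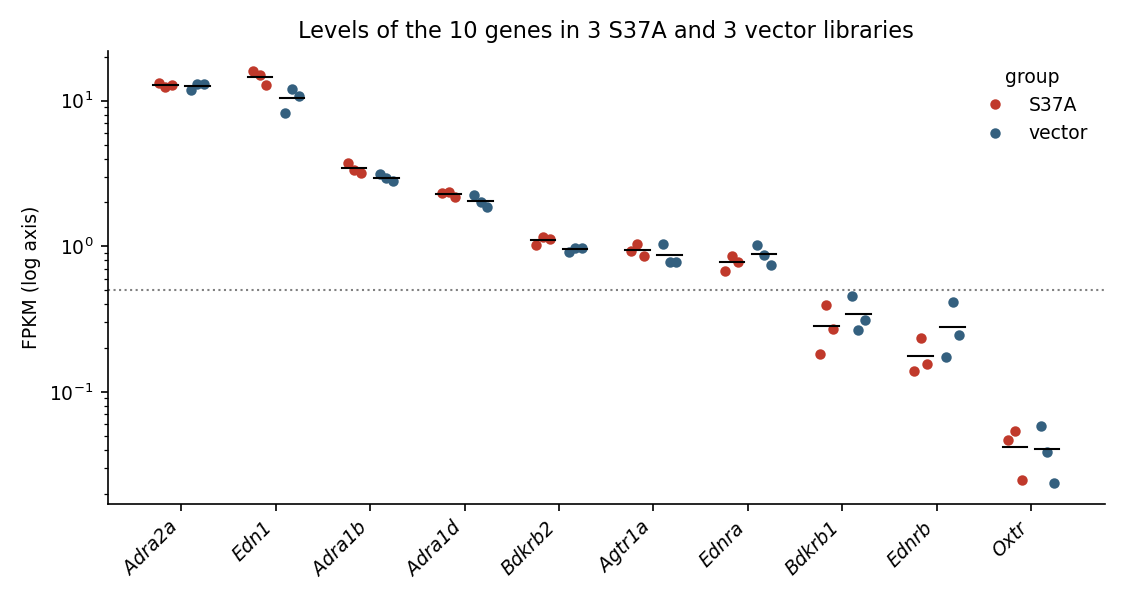
FPKM of each of the 10 genes (log axis) in the 3 S37A libraries (red) and the 3 vector libraries (blue), ordered by mean level, with a black bar at each group mean and a dotted line at the filter of 0.5 FPKM. Adra2a and Edn1 lie above 8 FPKM in every library, and Bdkrb1, Ednrb and Oxtr lie under the filter in every library.

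The levels spanned a wide range in steps. Adra2a averaged 12.7 ± 0.528 FPKM over all libraries and Edn1 12.5 ± 2.81 FPKM (SD, n = 6 each), and these first members could not be ordered, since Adra2a was the higher of the pair in 4 of 6 libraries. Adra1b (3.20 ± 0.332 FPKM) and Adra1d (2.16 ± 0.193 FPKM) came next, and neither range overlapped that of its neighbour. Bdkrb2 (1.03 ± 0.0950 FPKM), Agtr1a (0.904 ± 0.119 FPKM) and Ednra (0.828 ± 0.121 FPKM) followed with overlapping ranges. Bdkrb1 (0.312 ± 0.0979 FPKM) and Ednrb (0.227 ± 0.1003 FPKM) also overlapped each other, and Oxtr lay under both at 0.0409 ± 0.0146 FPKM. Among the tested genes, Adra2a and Edn1 stood at percentiles 60.7 and 60.2 of mean level, and Ednra, the lowest member tested, at percentile 5.57.

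Edn1 encodes the precursor of endothelin-1, a potent constrictor of blood vessels that is best known as a product of endothelium. The deposited model lies on chromosome 13 of mm10 from 42301270 to 42307989 on the plus strand. Its level was 15.9, 15.0 and 12.8 FPKM in S37A libraries, against 8.22, 12.0 and 10.8 FPKM in vector libraries. Every S37A library was above every vector library, but the lowest S37A library and the highest vector library were close, and vector replicate 1 lay well under the other two. Group means were 14.6 ± 1.62 FPKM in S37A libraries and 10.4 ± 1.94 FPKM in vector libraries (SD, n = 3 each), a ratio of 1.41. The log2 difference was 0.46 (SE 0.13, 95% interval 0.16 to 0.77, limma adjusted p = 0.0394). Permuting the 6 Edn1 values exactly gave a two-sided p = 0.1, which is the floor for 3 libraries against 3.

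The spread of Edn1 between libraries of a group was larger than counting error. The deposited interval ran from 7.67 to 8.78 FPKM in vector replicate 1 and from 11.4 to 12.7 FPKM in vector replicate 2, so that these intervals do not meet. The intervals correspond to 1251 to 1666 fragments in S37A libraries, against 878 to 1361 in vector libraries, or a counting error of at most 3.37%. The coefficient of variation between libraries was 11.1% in S37A and 18.7% in vector. The call was lost without S37A replicate 1, 2 or 3 (adjusted p = 0.102, 0.104 and 0.0576) and without vector replicate 3 (adjusted p = 0.0745). It held without vector replicate 1, where the difference was 0.32 (adjusted p = 0.0474), and without vector replicate 2 (adjusted p = 0.0350).

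**Figure D2:**
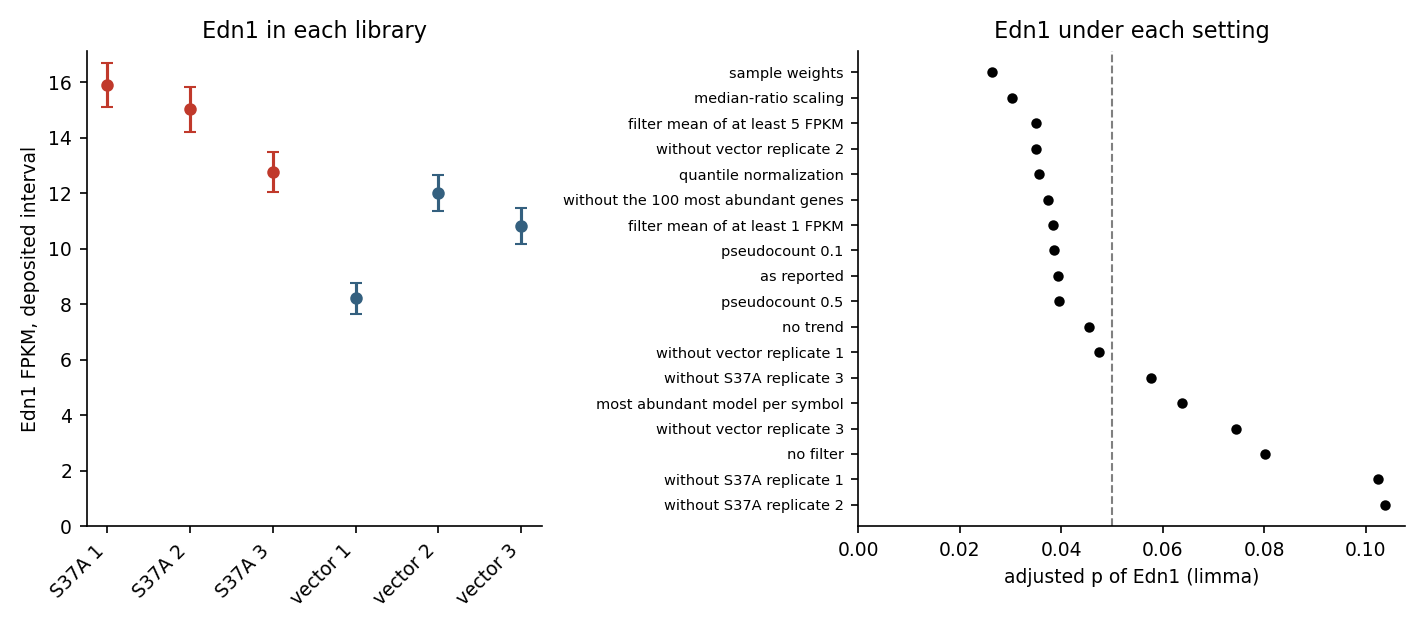
Left, Edn1 FPKM in each S37A library (red) and each vector library (blue), with bars for the deposited confidence interval, which covers uncertainty within a library. Right, the limma adjusted p of Edn1 under each setting tried without a replicate block, with the threshold of 0.05 dashed; the value lies between 0.0264 and 0.104.

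The start of Edn1 is shown because it is the member that passed the test. The RefSeq promoter window (GRCm38.p6, plus strand, chr13:42301226-42301525) holds 250 bases before and 50 bases after the annotated start at 42301476. The model in the deposited files starts 206 bases earlier, so most of this window is transcribed according to that older model. Capitals mark a GATA core and an AP-1-like element, kinds of site known from studies of the endothelin-1 promoter in endothelial cells; they were searched for after the sequence had been seen.
Edn1: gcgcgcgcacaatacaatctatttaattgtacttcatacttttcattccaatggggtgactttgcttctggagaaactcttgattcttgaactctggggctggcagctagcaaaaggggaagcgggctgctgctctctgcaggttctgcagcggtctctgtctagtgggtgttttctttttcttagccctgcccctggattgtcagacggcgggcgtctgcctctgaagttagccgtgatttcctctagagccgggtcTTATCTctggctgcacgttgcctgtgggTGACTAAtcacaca
The GATA core, AGATAA read on the minus strand, begins at base 9 after the start, and TGACTAA begins at base 37. On both strands, AGATAA is found in 11.2% and TGACTAA in 2.35% of the 32817 RefSeq windows of this length. The core CTTTGAT, bound by T-cell factors, the DNA-binding partners of β-catenin, was found in none of the 8 windows available for 7 of the 10 genes, against 3.73% of all windows, which says only that these letters are absent from these windows. An antisense gene, Gm47118, overlaps Edn1 in GENCODE M21, and the library kit does not keep strand, so reads of the pair cannot be told apart.

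Markers of other cell types were set beside Edn1. All 10 endothelial markers were listed above 0 in some library, and their summed level was 104 to 108 FPKM in S37A libraries, against 108 to 122.8 FPKM in vector libraries. The largest part was Emcn, a sialomucin of venous and capillary endothelium, at 68.6 ± 1.61 FPKM in S37A and 76.1 ± 5.10 FPKM in vector libraries (SD, n = 3 each). Of 9 endothelial markers tested, 0 passed in either direction by limma. At an unadjusted p under 0.05, 1 of them, Emcn, was lower, as were 3898 of all 12022 genes. With sample weights 3 of the 9 were called lower, and 2 were when vector replicate 1 was left out. None was called higher in any alternative. Macrophage markers were also higher in S37A libraries: 6 of 8 tested rose, against 6.06% of all genes tested. The 10 together summed to 57.3 to 64.1 FPKM in S37A libraries, against 22.9 to 28.4 FPKM in vector libraries. None of them was at 0 in all libraries. The most abundant was Lyz2, lysozyme, at 36.7 ± 2.63 FPKM in S37A and 14.1 ± 1.91 FPKM in vector libraries. Within groups, Lyz2 and Edn1 did not always run together. Vector replicate 1 had the lowest Edn1 and the highest Lyz2 of its group, while S37A replicate 3 was the lowest of its group in both. The part of these cells in the Edn1 level was not tested, and in bulk RNA more cells of a type and more RNA per cell cannot be told apart.

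Both endothelin receptors were low; Ednra did not pass the test and Ednrb was under the level filter. Ednra, the receptor through which endothelin contracts smooth muscle (chromosome 8, 77663029 to 77724452, minus strand), stood at 0.680, 0.859 and 0.783 FPKM in S37A libraries, against 1.03, 0.875 and 0.743 FPKM in vector libraries. The groups overlapped, and the log2 difference was -0.08 (95% interval -0.25 to 0.09, limma adjusted p = 0.413). Ednrb, which also clears endothelin and is needed for enteric neural crest cells and melanocytes in mice, lies on chromosome 14 from 103814615 to 103844476 on the minus strand. Its 3 models summed to 0.139, 0.233 and 0.154 FPKM in S37A libraries, against 0.174, 0.412 and 0.247 FPKM in vector libraries. The groups overlapped, with vector replicate 2 the highest, and no library held more than about 48 fragments. With no filter on level, the log2 difference of Ednrb was -0.12 (95% interval -0.29 to 0.05, limma adjusted p = 0.312).

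The deposited split of Ednrb among its models was unstable. The model NM_007904 took 100%, 31.4% and 26.3% of the gene's FPKM in S37A replicates 1, 2 and 3, against 74.6%, 0% and 24.9% in vector replicates 1, 2 and 3. No model was the major one in all libraries of a group, so only the sum is used. The 6 glial markers, named because Ednrb is a neural crest gene, summed to 2.54 to 3.50 FPKM in S37A libraries, against 3.00 to 3.75 FPKM in vector libraries. The 5 melanocyte markers summed to 2.05 to 2.20 FPKM in S37A libraries, against 1.85 to 2.00 FPKM in vector libraries. Most of this was Mitf, a transcription factor that is not confined to melanocytes, at 1.88 ± 0.102 FPKM in S37A libraries and 1.73 ± 0.109 FPKM in vector libraries (SD, n = 3 each). Mlana reached at most 0.329 FPKM, Dct and Tyr at most 0.0100 and 0.0250 FPKM, and Pmel was listed at 0 in every library.

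The other genes of the endothelin axis gave no call by limma, and 0 of the 2 tested reached an unadjusted p under 0.05. Ece1 and Ece2, the endothelin-converting enzymes, averaged 39.6 ± 0.411 and 21.2 ± 1.34 FPKM in S37A libraries, against 38.9 ± 0.910 and 21.5 ± 0.170 FPKM in vector libraries (SD, n = 3 each). Their limma adjusted p was 0.588 and 0.780, and the sign of Ece2 turned under each other scaling. The ligand genes Edn2 and Edn3 were under the filter, at no more than 0.113 and 0.0202 FPKM in any library. Both enzymes were thus higher per length than Edn1, and both receptors lower.

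Among adrenergic receptors, Adra1b and Adra1d had slightly higher means in S37A libraries and did not pass the test. The remaining alpha-1 gene, Adra1a, was under the level filter and not tested. It stood at 0.0519, 0.0431 and 0.0361 FPKM in S37A libraries, against 0.0977, 0.0623 and 0.0652 FPKM in vector libraries. Every S37A library was below every vector library, as for 36.5% of all genes tested. These values are near the floor: Oxtr, at 0.0236 to 0.0584 FPKM, rests on 5 to 13 inferred fragments per library. Adra1b (chromosome 11, 43774605 to 43901237, minus strand) encodes an alpha-1 receptor coupled to Gq. It stood at 3.75, 3.34 and 3.21 FPKM in S37A libraries, against 3.16, 2.94 and 2.80 FPKM in vector libraries. The groups did not overlap, by a narrow margin, and the log2 difference was 0.16 (SE 0.06, 95% interval 0.01 to 0.31, limma adjusted p = 0.0946). Adra1d (chromosome 2, 131545357 to 131562285, minus strand), another alpha-1 subtype, also described in human prostate stroma, stood at 2.31, 2.36 and 2.19 FPKM in S37A libraries, against 2.24, 2.00 and 1.86 FPKM in vector libraries. Vector replicate 1 lay within the S37A range, and the log2 difference was 0.12 (95% interval -0.02 to 0.26, limma adjusted p = 0.180). Adra1b passed under quantile normalization (adjusted p = 0.0466) and with sample weights (adjusted p = 0.0435), and Adra1d under none of 17 alternatives.

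Smooth muscle markers, measured in the same libraries, were higher in S37A. Of 9 tested, 8 rose by limma, against 6.06% of all genes tested. The 10 markers summed to 8276 to 8641 FPKM in S37A libraries, against 7011 to 7441 FPKM in vector libraries, with none listed at 0. The count of 8 was 4 without a level filter and 4 with a replicate block. It was 6 under quantile normalization, without the intensity trend and with the most abundant model per symbol. With a library left out it was 3 to 8, at 4, 3 and 4 without S37A replicates 1, 2 and 3 and at 5 without vector replicate 3. No marker was called lower in any of these. Cnn1 and Des, encoding calponin and desmin, kept their calls in all 18 alternatives, and Myh11 and Smtn, encoding smooth muscle myosin and smoothelin, in 8 of 18 each. Whether they bear on the alpha-1 receptor levels was not tested. Of 4 pericyte markers tested 2 rose, Mcam and Cspg4 (1 without S37A replicate 2 or 3), against 6.06% of all genes tested. The 6 together summed to 86.6 to 92.3 FPKM in S37A libraries, against 70.4 to 73.9 FPKM in vector libraries. Most of this was Mcam, at 60.7 and 46.4 FPKM, and Cspg4, at 25.6 and 21.8 FPKM in S37A and vector libraries. Abcc9 and Notch3 were tested and not called, with differences of -0.03 and -0.02. Rgs5, under the filter, averaged 0.325 and 0.319 FPKM in S37A and vector libraries.

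Adra1b has 3 models in the files, and a single one of them held all of its FPKM. NM_007416, which starts at 43836489, took 100% of the gene's FPKM in each library. NM_001284380 and NM_001284381, which start far upstream at 43901237, were listed at 0 in all 6 libraries. Both start windows are shown because FPKM was assigned to the models of only the first (GRCm38.p6, minus strand, RefSeq, with 250 bases before and 50 after the start); no capitals occur because none of the 4 motifs searched, TATAAA among them, was found.
Adra1b at the start with FPKM, chr11:43836440-43836739: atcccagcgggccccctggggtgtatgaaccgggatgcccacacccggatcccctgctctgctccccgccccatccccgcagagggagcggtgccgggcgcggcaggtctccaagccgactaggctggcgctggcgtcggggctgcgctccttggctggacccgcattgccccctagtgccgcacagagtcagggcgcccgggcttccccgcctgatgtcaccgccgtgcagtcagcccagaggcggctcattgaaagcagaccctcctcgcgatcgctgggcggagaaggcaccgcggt
Adra1b at the start listed at 0, chr11:43901188-43901487: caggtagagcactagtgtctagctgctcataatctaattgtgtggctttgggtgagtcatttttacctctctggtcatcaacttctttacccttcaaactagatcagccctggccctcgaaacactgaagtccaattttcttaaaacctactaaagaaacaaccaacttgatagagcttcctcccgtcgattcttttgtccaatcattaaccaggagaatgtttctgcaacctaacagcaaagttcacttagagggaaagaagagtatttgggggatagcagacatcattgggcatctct
The window with FPKM has 71.3% G and C and 28 CpG dinucleotides, more CpG than 85.8% of RefSeq windows. The window listed at 0 has 42.3% G and C and 3 CpG dinucleotides, more than 23.3% of windows. A median window has 52.7% G and C and 7 CpG dinucleotides.

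Adra2a, on chromosome 19 from 54045182 to 54048982 on the plus strand, encodes the alpha-2A receptor, best known as the brake on noradrenaline release from nerve endings. It stood at 13.1, 12.4 and 12.8 FPKM in S37A libraries, against 11.8, 13.1 and 12.96 FPKM in vector libraries. The groups overlapped, and the log2 difference was 0.02 with a 95% interval of -0.09 to 0.14 (limma adjusted p = 0.764). Its sign turned with sample weights and without vector replicate 1.

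Agtr1a encodes the main angiotensin II receptor of blood vessels in mice and lies on chromosome 13 from 30336356 to 30382867 on the plus strand. It stood at 0.931, 1.04 and 0.858 FPKM in S37A libraries, against 1.04, 0.774 and 0.785 FPKM in vector libraries. The highest vector library equalled the highest S37A library at this rounding, and the log2 difference was 0.06 (95% interval -0.11 to 0.23, limma adjusted p = 0.560). The sister gene Agtr1b, the receptor gene Agtr2 and the precursor gene Agt stayed at or under 0.0421 FPKM, and the renin gene Ren1 was listed at 0 in every library.

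The bradykinin receptor genes are neighbours on chromosome 12, on the plus strand, with 11019 bases between their models. Bdkrb2 (105563172 to 105593071) encodes the constitutive receptor, and Bdkrb1 (105604091 to 105605428) the receptor that inflammation and tissue injury induce. Bdkrb2 stood at 1.02, 1.16 and 1.12 FPKM in S37A libraries, against 0.920, 0.979 and 0.968 FPKM in vector libraries. The groups did not overlap, but the log2 difference was 0.10 with an interval that includes 0 (95% interval -0.02 to 0.23, limma adjusted p = 0.165). Bdkrb2 rests on 72 to 75 and 67 to 76 inferred fragments per S37A and vector library, and its deposited intervals overlap between the groups. The counting error of 11.5% to 12.2% exceeds the coefficient of variation between libraries, 6.54% in S37A and 3.25% in vector. Bdkrb1 stood at 0.180, 0.395 and 0.270 FPKM in S37A libraries, against 0.452, 0.265 and 0.311 FPKM in vector libraries, on 10 to 19 and 16 to 26 inferred fragments per S37A and vector library. With no filter on level, its log2 difference was -0.07 (95% interval -0.25 to 0.11, limma adjusted p = 0.578).

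Oxtr, the receptor for oxytocin, which contracts the uterus and the milk ducts, lies on chromosome 6 from 112473684 to 112489808 on the minus strand. It was the lowest member, at 0.0466, 0.0537 and 0.0249 FPKM in S37A libraries, against 0.0584, 0.0385 and 0.0236 FPKM in vector libraries. These values rest on 5 to 10 inferred fragments in S37A libraries, against 5 to 13 in vector libraries, so a small difference could not be seen at this depth. Without the level filter, its log2 difference was 0.0022 with a 95% interval of -0.04 to 0.04 (limma adjusted p = 0.945), on a scale on which changes at such levels appear very small. The oxytocin and vasopressin genes Oxt and Avp were listed at 0 in every library, while the vasopressin receptor Avpr1a averaged 5.83 ± 0.158 FPKM in S37A libraries and 5.25 ± 0.667 FPKM in vector libraries (SD, n = 3 each; limma adjusted p = 0.234).

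**Figure D3:**
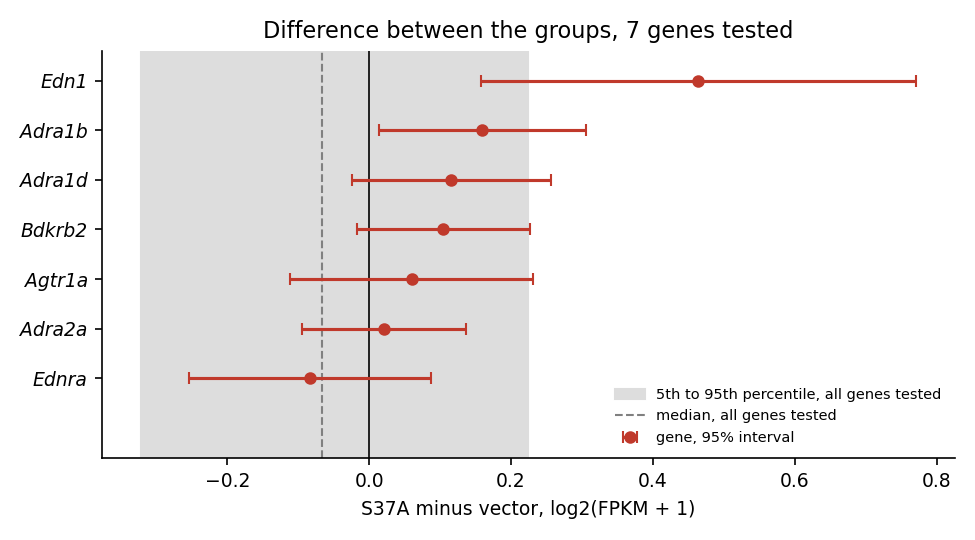
S37A minus vector difference on log2(FPKM + 1) for the 7 genes tested, with 95% intervals from limma; the grey band spans the 5th to 95th percentile of all 12022 genes tested and the dashed line is their median of -0.07. Edn1 lies at 0.46, to the right of the band, and the other 6 lie inside it, between -0.08 and 0.16.

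Of the 7 genes tested, 3 had every S37A library above every vector library, namely Edn1, Adra1b and Bdkrb2, where 11.3% of all genes tested did so, and 47.8% of all genes showed no overlap in either direction. In the other direction the count was 0 among the members, against 36.5% of all genes. Differences were positive for 6 of the 7, against 3669 of 12022 genes overall. These all-gene shares depend on scaling: with median-ratio scaling, differences were positive for 6 of the 7 and for 6110 of 12018 genes, and every S37A library was above every vector library for 5 of the 7 and for 22.2% of all genes, or below for none of the 7 and for 19.0% of all genes. The genes were chosen with earlier results of these data known, so these counts describe the list and carry no test.

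Receptors of a pair were also compared within each library. The log2 ratio of Ednrb to Ednra, with 0.1 FPKM added to each, was -1.71, -1.53 and -1.80 in S37A libraries, against -2.04, -0.93 and -1.28 in vector libraries. The log2 ratio of Bdkrb1 to Bdkrb2 was -2.00, -1.35 and -1.73 in S37A libraries, against -0.89, -1.56 and -1.38 in vector libraries. The log2 ratio of Adra1b to Adra1d was 0.68, 0.48 and 0.53 in S37A libraries, against 0.48, 0.53 and 0.57 in vector libraries. The groups overlapped in all 3 pairs, and exact two-sided permutation tests gave p = 0.5, 0.3 and 0.7 in this order, where 0.1 is the smallest possible. Adjusted over the 3 pairs by Benjamini-Hochberg, each of these exact p-values became 0.7.

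At the level of single transcript models, which limma tested among 14567 models with a mean of at least 0.5 FPKM, 0 of 7 member models passed, with 1 at an unadjusted p under 0.05. Across all models 7.86% passed. The Edn1 model had the same difference of 0.46 there, with a larger error (SE 0.15, adjusted p = 0.101).

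The surrounding pathways were described through 10 lists with 120 genes, of which 78 passed the level filter. Of these 78 genes, 12 rose and 6 fell, where 6.06% of all genes tested rose and 19.9% fell. Rises and falls together were a share near the 26.0% called over all genes. The median difference of the 78 genes was -0.02, against -0.07 for all genes. The split within the lists was not stable: 15 were higher and 2 lower with median-ratio scaling and 6 and 7 with the most abundant model per symbol. With median-ratio scaling the split over all genes changed too, to 1339 higher and 890 lower of 12018. Omitting vector replicate 2 gave 7 higher and 3 lower, and omitting vector replicate 3 gave 6 and 6. Omission of S37A replicate 2 or 3 gave 3 higher in either case, with 3 and 2 lower. The lists were chosen with earlier results of these data known.

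Relaxation through nitric oxide and natriuretic peptides gave 4 rises among 9 genes tested and no call in the other direction. Over all genes tested, 6.06% rose and 19.9% fell. Nppb, which encodes B-type natriuretic peptide, a vasodilator, stood at 16.6, 15.3 and 15.4 FPKM in S37A libraries, against 9.17, 11.8 and 10.5 FPKM in vector libraries. The groups lay far apart, with a log2 difference of 0.55 (limma adjusted p = 0.00799). Gucy1b3, a subunit of the soluble guanylate cyclase that nitric oxide activates, stood at 10.1, 10.8 and 11.1 FPKM in S37A libraries, against 8.38, 7.08 and 8.62 FPKM in vector libraries (limma adjusted p = 0.0151). Its call was lost without S37A replicate 2 or 3 (adjusted p = 0.0503 and 0.0573). The other subunit, Gucy1a3, and the cyclic GMP kinase Prkg1 also rose, with adjusted p = 0.0442 and 0.0272, and lost their calls in 5 of 6 leave-one-out fits each (at most 0.123 and 0.0737).

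Other vasoactive receptors gave 3 rises among 16 tested and no call in the other direction, where 6.06% of all genes rose and 19.9% fell. Htr2a, a Gq-coupled serotonin receptor, stood at 14.0, 10.6 and 11.7 FPKM in S37A libraries, against 7.37, 8.70 and 8.31 FPKM in vector libraries. All S37A libraries were above all vector libraries, and the log2 difference was 0.52 (limma adjusted p = 0.0140). P2ry2, a nucleotide receptor, averaged 10.0 ± 0.497 FPKM in S37A libraries and 8.77 ± 0.184 FPKM in vector libraries (SD, n = 3 each; limma adjusted p = 0.0305), a call lost without any 1 library (adjusted p = 0.0575 to 0.0745). S1pr3, a receptor for sphingosine phosphate, was the third (adjusted p = 0.0334), and its call was lost in 5 of 6 leave-one-out fits (at most 0.0870).

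**Figure D4:**
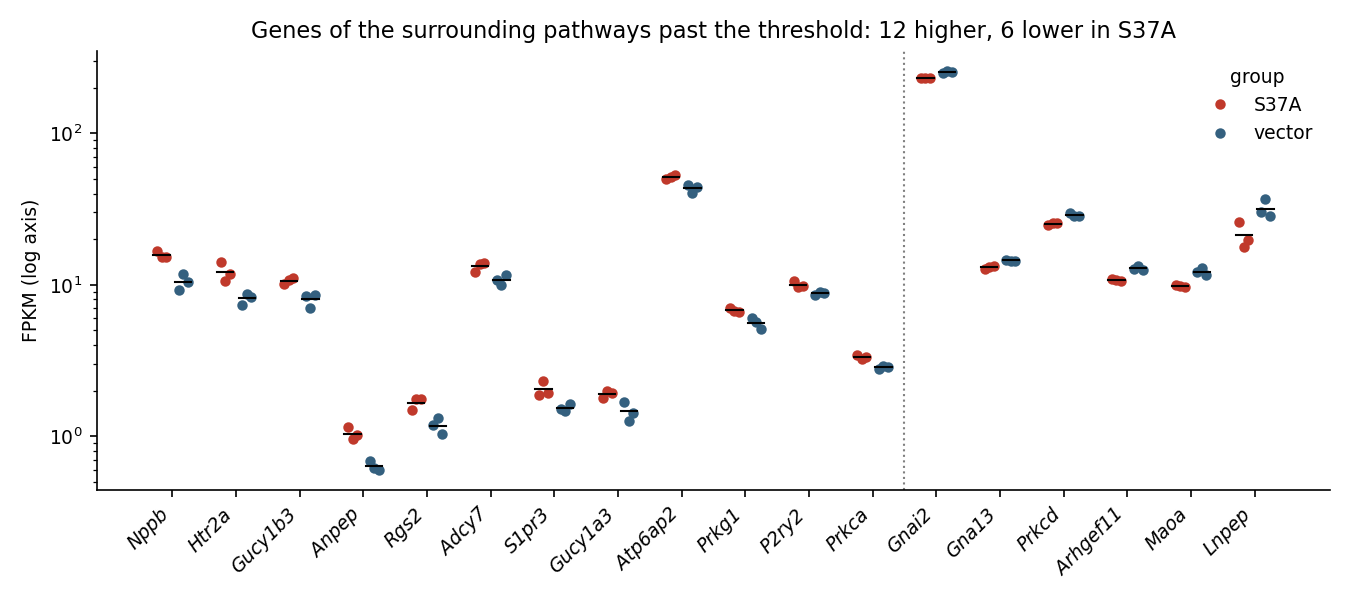
FPKM (log axis) of the 18 genes of the surrounding pathways past the limma threshold, in the 3 S37A libraries (red) and the 3 vector libraries (blue) with black bars at group means, ordered by log2 difference; the dotted line parts the 12 that were higher from the 6 that were lower in S37A. Nppb leads the rises at 0.55 and Lnpep is the largest fall at -0.57.

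Peptidases and amine-degrading enzymes moved in both directions. Lnpep, known as oxytocinase, which also serves as the angiotensin IV receptor, stood at 25.9, 17.7 and 19.8 FPKM in S37A libraries, against 30.1, 36.9 and 28.3 FPKM in vector libraries. It fell with a log2 difference of -0.57 (limma adjusted p = 0.0276), a call kept in 12 of 18 alternatives. The call was lost without vector replicate 2 and without S37A replicate 2 or 3 (adjusted p = 0.0733, 0.0773 and 0.0841). It was also lost under median-ratio scaling, without a level filter and with a replicate block (adjusted p = 0.0537, 0.0610 and 0.0615). Maoa, monoamine oxidase A, which breaks down noradrenaline and serotonin, averaged 9.86 ± 0.141 FPKM in S37A libraries and 12.2 ± 0.705 FPKM in vector libraries (SD, n = 3 each) and fell (limma adjusted p = 0.0102). Among angiotensin genes, the aminopeptidase gene Anpep rose, at 1.04 ± 0.0966 FPKM in S37A libraries and 0.633 ± 0.0445 FPKM in vector libraries (adjusted p = 0.0120). The prorenin receptor gene Atp6ap2, also part of the vacuolar proton pump, rose too, at 51.7 ± 1.54 and 43.6 ± 2.79 FPKM in S37A and vector libraries (limma adjusted p = 0.0177), with the call lost without S37A replicate 2 or 3 (adjusted p = 0.0565 and 0.0664). In the kinin list, the peptidase gene Cpm (adjusted p = 0.0901) and Serping1, the C1 inhibitor that restrains kallikrein (adjusted p = 0.0778), did not pass; each passed in a leave-one-out fit, Cpm, the higher in S37A, without vector replicate 1 (0.0452) and Serping1, the lower, without vector replicate 3 (0.0463).

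Downstream of the receptors, calls went in both directions. Of 20 Gq and G12/13 genes tested, 1 rose and 3 fell, where 6.06% of all genes tested rose and 19.9% fell. Arhgef11, an activator of RhoA, averaged 10.8 ± 0.178 FPKM in S37A libraries and 12.9 ± 0.422 FPKM in vector libraries (SD, n = 3 each; limma adjusted p = 0.0100), and Prkcd, a protein kinase C, averaged 25.4 ± 0.355 and 28.9 ± 0.898 FPKM in S37A and vector libraries (limma adjusted p = 0.0151). The fall of Prkcd was lost under median-ratio scaling (adjusted p = 0.0850) and without S37A replicate 2 or 3 (adjusted p = 0.0507 and 0.0529). The other calls were Gna13, which fell, and Prkca, which rose (adjusted p = 0.0280 and 0.0301), both lost without any 1 library (at most 0.0799 and 0.0920). Gna13 was also lost under median-ratio scaling (difference -0.06, adjusted p = 0.227) and quantile normalization (difference -0.07, adjusted p = 0.171), against a difference of -0.14 as deposited. Of 11 Gi and Gs genes tested, 1 rose and 1 fell, beside the same shares of all genes. Gnai2, an inhibitory G protein subunit, fell, at 231 ± 0.687 FPKM in S37A libraries and 253 ± 5.20 FPKM in vector libraries (adjusted p = 0.0224). Under median-ratio scaling Gnai2 was not called (adjusted p = 0.255). Adcy7, an adenylate cyclase, rose, at 13.2 ± 0.971 and 10.8 ± 0.875 FPKM in S37A and vector libraries. Its log2 difference was 0.27 (limma adjusted p = 0.0322). Both calls were lost in 4 of 6 leave-one-out fits, at adjusted p of at most 0.0834 for Gnai2 and 0.103 for Adcy7.

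Of 9 genes tested that switch off receptor signalling, 1 rose and 0 fell by limma, and the median difference was -0.14, against -0.07 for all genes. At an unadjusted p under 0.05, 2 of the 9 were higher and 5 lower, where 1239 and 3898 of all 12022 genes were. With median-ratio scaling 2 were higher and 2 lower. Rgs2, which quenches Gq and relaxes vessels, was the gene that rose. It stood at 1.502, 1.76 and 1.75 FPKM in S37A libraries, against 1.18, 1.31 and 1.03 FPKM in vector libraries (limma adjusted p = 0.0234). The groups did not overlap, but the call was lost without vector replicate 3 and without S37A replicate 2 or 3 (adjusted p = 0.0647, 0.0752 and 0.0778). Rgs4, another inhibitor of Gq and Gi, stood at 2.50, 2.90 and 2.87 FPKM in S37A libraries, against 4.73, 3.69 and 3.16 FPKM in vector libraries. These groups did not overlap either, and the difference of -0.36 did not pass (adjusted p = 0.0533), except without vector replicate 3 (adjusted p = 0.0355) and with a pseudocount of 0.1 (adjusted p = 0.0489).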

How the data were processed

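Per the labels' protocols, complementary DNA of 6 libraries was made with the SMART-Seq v4 kit, which does not keep strand, and sequenced on an Illumina HiSeq 2500. The build is mm10 and the tools are TopHat, Cufflinks and bcl2fastq 1.8.3, per the submitters' processing notes. The deposited tables give, per the file headers, FPKM with its confidence interval for each of 34535 transcript models. The coverage, a signal in the authors' deposited tables, is a fixed multiple of FPKM within a library and gave no value here. Fragment numbers were inferred from interval widths (FPKM plus 2 standard deviations of a count) and cover counting error only.

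FPKM was summed by symbol, 5 genes with a status other than OK were left out, and log2(FPKM + 1) was tested with limma 3.58.1 (R 4.3.3, intensity trend, no block) after a filter at a mean of 0.5 FPKM. Groups came from sample titles. The code was tested on simulated data. The members and lists were chosen with earlier results of these data known. Named are all members, Ctnnb1 and Axin2, the 2 genes of each pathway list with the smallest p, abundant markers, and the other called genes where calls were few. One gene that meets this rule is not reported here. Member positions are those of the deposited models, in 1-based coordinates; Ednra, Agtr1a and Adra1d also have an overlapping annotated gene in GENCODE M21. Alternatives were other pseudocounts, filters and scalings, no trend, sample weights, a replicate block, the most abundant model per symbol, and each library left out.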

Additional observations from a re-analysis of the deposited data

How the results depend on the processing

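The number of members called was 1 in 9 of 18 alternatives. It was 0 without a filter, with the replicate block and with the most abundant model per symbol, 2 under quantile normalization and with sample weights (Edn1 and Adra1b), and 0 to 1 when a library was left out. Edn1 kept its direction in all 18 and its call in 11; its adjusted p was 0.0801 without a filter, 0.0729 with the replicate block and 0.0639 with the most abundant model. The share of all genes called was 11.8% without a filter, 17.1% under quantile normalization, 40.7% with sample weights, 13.6% with the replicate block, 16.9% with the most abundant model, and 7.53% to 26.2% with a library left out. Its split was 729 higher and 2393 lower as reported, 1339 and 890 under median-ratio scaling, 900 and 1500 with the 100 most abundant genes removed, and 1094 and 957 under quantile normalization. Pathway genes called numbered 11 without a filter, 30 with sample weights, 10 with the replicate block, and 5 to 16 with a library left out. Adra2a turned to -0.0044 with sample weights and -0.024 without vector replicate 1 (-0.024 to 0.047 with a library left out), and the Adra1b to Adra1d ratio ran from -0.017 to 0.0802 with a library left out, negative without S37A replicate 1. The cause of these changes was not tested. The labels do not say that replicate numbers pair the libraries: same-numbered libraries deviated from their group means with correlations of -0.12 to 0.10 over 12022 genes, and 1 of 3 S37A libraries correlated best with its own number. Depth limits Oxtr, Bdkrb1, Ednrb and Bdkrb2, with at most 13, 26, 48 and 76 inferred fragments per library.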
